A study of Drosophila melanogaster with 38 samples.

Results

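The regions described here are the broad O-GlcNAc peaks of Drosophila melanogaster autosomes that lie away from OGA, the enzyme that removes the mark. They were chosen from the deposited peak list by position and width alone: a chromosome other than X and outside the heterochromatin sequences, a width of 75 bp or more, and a gap of more than 1000 bp to every OGA interval. There were 320 such peaks of 1883 in all, or 17.0%, and of 1661 on autosomes, or 19.3%.

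O-GlcNAc is 1 N-acetylglucosamine residue, which the transferase OGT (super sex combs in the fly) links to serine or threonine side chains inside the cell, and OGA is the hydrolase that cuts it away. On fly chromatin the mark is best known from Polycomb-group proteins, which keep developmental genes silent, and the loss of OGT derepresses homeotic genes. A pulse of an azide-bearing sugar labels proteins that receive the mark during the pulse, and the loss of label in a chase without that sugar follows removal of the sugar, turnover of the protein and dilution by growth together.

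The samples were whole larvae of 2 genotypes, OGA-null larvae (OGA knockout) and WT larvae (wild type), both with the strain background Oregon R. Eggs were laid on food with 150 uM Ac4GalNAz, and larvae were moved after 36 h to food with solvent only. The chase lasted 0 to 24 h in steps of 4 h, or 36 h, with 2 biological replicates per genotype and time, or 32 libraries. Chromatin with the sugar was clicked to biotin, pulled down on streptavidin and sequenced (O-GlcNAc-seq). OGA was mapped by ChIP-seq with rabbit antibodies in larvae, 1 library for OGA-null and 1 for WT larvae, which share 1 deposited list of 3534 intervals, so that intervals from OGA-null larvae cannot be set apart. Each library pooled many larvae and all their tissues. The larvae grew older as the chase went on, so chase time and age cannot be told apart.

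All values are the authors' deposited signal divided by the width of the peak, called signal per base here, and each combines both replicates of a genotype and time. The spread between replicates and the sequencing depth are therefore unknown, and the tests below run over the 8 chase times. The scaling of the columns is not stated in the labels or headers, so a difference between columns can hold a difference in scaling. Unfed larvae were not analysed here, and no background level stands beside the values. Positions are those of the dm3 build, counted from 1. The genes at the peaks were not analysed here.

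The broad peaks were spread over the 4 large autosomal arms in shares close to those of all autosomal O-GlcNAc peaks, with no test made. Arm 3R held 94 of them (29.4%, against 29.0% of all autosomal peaks), 2R held 81 (25.3% against 23.9%), 3L held 75 (23.4% against 24.6%) and 2L held 70 (21.9% against 22.5%). Chromosome 4 carried 1 O-GlcNAc peak in all and 0 broad ones. Between the first and the last broad peak of an arm their density was 4.21 per Mb on 2R, 3.42 on 3R, 3.30 on 3L and 3.14 on 2L. The first and last lay at 1421542 and 20655786 on 2R, at 92670 and 27574185 on 3R, at 123602 and 22864336 on 3L, and at 129106 and 22428999 on 2L.

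Their widths ran from 75 to 450 bp with a median of 115 bp and quartiles of 91 and 154 bp. Only 36 of the 320 were 200 bp or wider. The narrow autosomal peaks without OGA, which meet the same rule except that they are under 75 bp wide, numbered 907 with a median width of 22 bp, and 440 of them had the smallest width of 20 bp. The 320 broad peaks covered 42298 bp, or 44.1% of all autosomal peak sequence, and the 907 narrow ones 29769 bp. They held 46.2% of all autosomal peak signal in OGA-null and 47.1% in WT larvae at 0 h.

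Most broad peaks stood by themselves. When autosomal O-GlcNAc peaks with gaps of 1000 bp or less were joined, the 320 broad peaks fell into 302 stretches, of which 232 were a broad peak alone. Another O-GlcNAc peak lay within 1 kb of 88 broad peaks (27.5%). That share was 31.0% for the narrow peaks and 34.8% for broad autosomal peaks with OGA within 1000 bp. For 66 of the 88 broad peaks the nearest one was a narrow peak without OGA. For 19 the nearest was another broad peak without OGA, and for 3 a narrow peak that had OGA within 1000 bp. The median gap to the nearest O-GlcNAc peak was 5236 bp, against 3483 bp for the narrow peaks, and 55 broad peaks had none within 50 kb.

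The nearest OGA interval lay at a median of 10650.5 bp, with the closest at 1006 bp and the farthest at 430534 bp. Within 10 kb of an OGA interval lay 155 broad peaks (48.4%), against 533 of the narrow ones (58.8%), and 31 had none within 50 kb. To the nearest other broad peak without OGA the median gap was 51290.5 bp. These gaps are a description of the lists, and no test of the differences between classes was made.

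**Figure D1:**
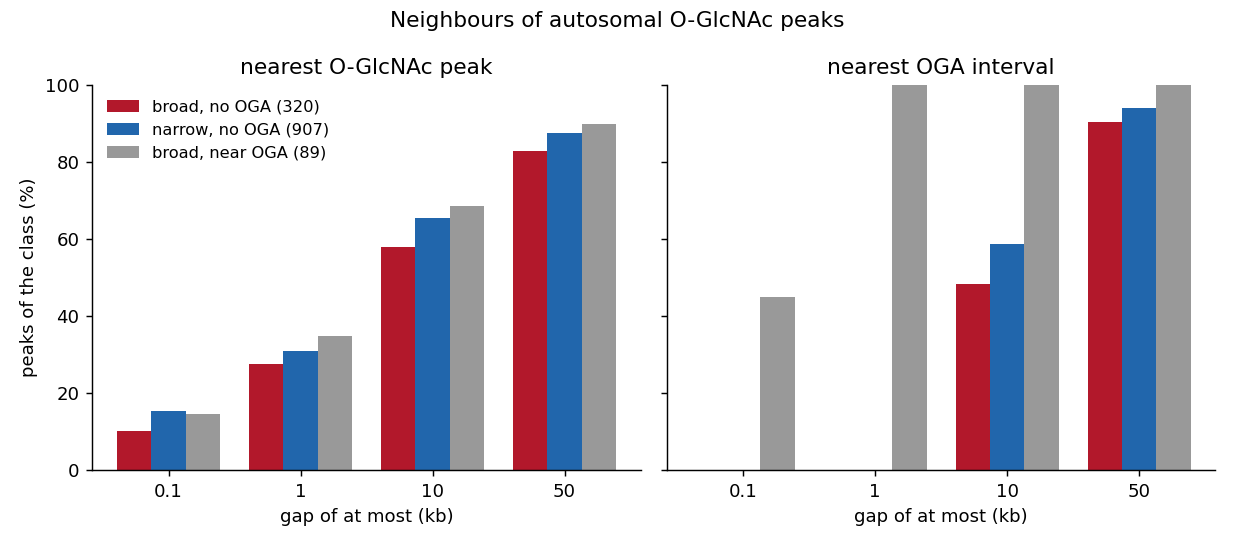
Share of peaks (%) whose nearest O-GlcNAc peak (left) or nearest OGA interval (right) lies within 0.1, 1, 10 or 50 kb, for broad peaks without OGA (320), narrow peaks without OGA (907) and broad peaks near OGA (89). The bars of the broad peaks without OGA are the lowest of the 3 classes at every distance on the left, with 57.8% within 10 kb; on the right the rule itself sets both classes without OGA to 0 up to 1 kb.

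A few stretches packed broad peaks closely. The stretch with the most broad peaks, on 3R from 17122465 to 17123885, held 5 broad peaks and 1 further O-GlcNAc peak in 1421 bp, of which the peaks covered 61.2%, and its nearest OGA interval was 16298 bp away. Over this stretch the signal per base in OGA-null larvae was 24.9, 26.1, 20.4, 17.4, 16.6, 8.89, 4.00 and 2.21 from 0 to 36 h. The WT values were 39.0, 19.7, 13.0, 6.82, 8.11, 4.05, 1.28 and 0.103. The WT value at 16 h thus stood above that at 12 h, while the OGA-null values fell at every step after 4 h.

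A second stretch on 3R, from 23774428 to 23776816, held 7 O-GlcNAc peaks in 2389 bp, 3 of them broad, with OGA 2569 bp away. There 76.3% of the 0 h signal was left after 8 h in OGA-null larvae and 29.0% in WT larvae. The other 12 stretches with more than 1 broad peak had 2 each. On 2R from 2000001 to 2100000, a 100 kb window with 6 broad peaks among 12 O-GlcNAc peaks and 4 OGA intervals, the broad peaks ran from 2008056 to 2041125. Their 0 h signal per base lay between 22.8 and 27.3 in OGA-null and between 32.5 and 42.6 in WT larvae. The window on 3R from 17100001 to 17200000 also had 6 broad peaks, among 8 O-GlcNAc peaks and 4 OGA intervals. The next, on 3L from 4200001 to 4300000, had 5 broad peaks among 23 O-GlcNAc peaks and 30 OGA intervals. Of the 227 windows with a broad peak, 165 held a single one, and 35 held no OGA interval.

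The first question for the signal was how much label the broad peaks carried and how long it stayed. In the order of the chase, 0 to 24 h in 4 h steps and then 36 h, the median broad peak of OGA-null larvae had a signal per base of 24.6, 25.5, 19.6, 16.4, 13.8, 8.05, 3.33 and 1.81. The same peaks in WT larvae had medians of 37.4, 18.5, 12.6, 6.36, 5.79, 3.19, 1.15 and 0.141. OGA-null larvae thus started lower and ended higher, and the curves crossed between 0 and 4 h.

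Relative to these medians, the single peaks lay close together early and spread out later. At 0 h the 320 peaks lay between 20.6 and 36.0 in OGA-null and between 25.96 and 57.7 in WT larvae, and the quartiles were 23.2 and 26.3 in OGA-null and 33.7 and 41.0 in WT larvae. At 16 h the range was 6.81 to 26.7 in OGA-null and 1.34 to 14.3 in WT larvae. At 36 h it was 0.884 to 3.69 in OGA-null larvae and 0 to 0.552 in WT larvae, where 3 peaks were listed at 0. The ranges of the genotypes did not overlap at 36 h. Over all 1883 O-GlcNAc peaks the lowest OGA-null value at 36 h was 0.516. The WT 95th percentile of all peaks was 0.427, below that value, and the WT maximum was 1.21.

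**Figure D2:**
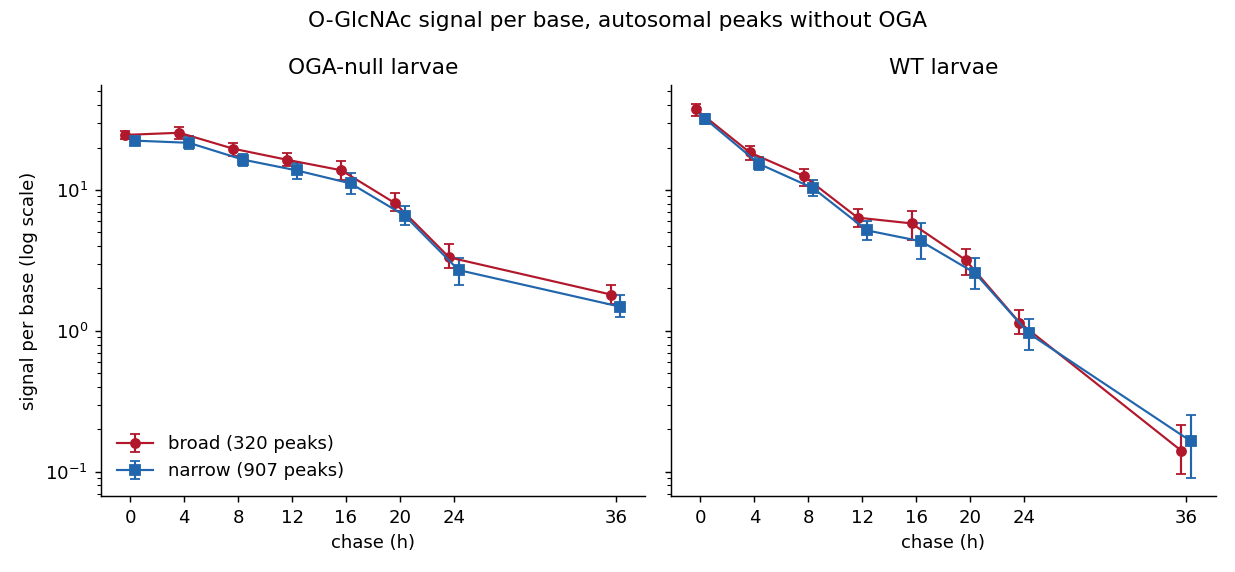
Median signal per base (log scale) of broad (320) and narrow (907) autosomal O-GlcNAc peaks without OGA at each chase time in OGA-null (left) and WT larvae (right); bars span the quartiles over peaks. Broad peaks lie above narrow ones in every column except WT 36 h, where the medians are 0.141 and 0.165.

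As a share of its own 0 h value, the median broad peak of OGA-null larvae was at 102.5%, 79.04%, 66.3%, 55.4%, 32.9%, 13.6% and 7.37% over the 7 later times. The WT shares were 49.4%, 33.5%, 16.9%, 15.2%, 8.39%, 3.06% and 0.364%. A line through the log2 median signal per base gave an apparent half-life of 8.62 ± 1.00 h in OGA-null and 4.65 ± 0.294 h in WT larvae (SE of the fit over 8 times). Without the 36 h columns the WT half-life was 5.27 h. Neither decline followed 1 line. In OGA-null larvae the median share kept over a 4 h step was 102.5% from 0 to 4 h, 84.1% from 12 to 16 h and 40.8% from 20 to 24 h. In WT larvae it was 49.4%, 88.8% and 35.8% over the same steps. The half-lives thus sum up the whole course and do not give the rate of any part of it.

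In OGA-null larvae the label did not fall in the first 4 h at most broad peaks: 194 of 320 (60.6%) were above their own 0 h value, where 43.8% of all 1883 O-GlcNAc peaks were. Broad peaks near OGA had a like share, 56 of 89 (62.9%), and narrow peaks without OGA had 38.9%. At 16 h, 91 broad peaks (28.4%) had lost 2-fold or more of their 0 h value in OGA-null larvae, against 46.6% of all peaks. At 20 h all 320 had, against 99.7% of all peaks. In WT larvae 182 broad peaks (56.9%) had lost 2-fold or more by 4 h, against 62.2% of all peaks, and by 8 h all 320 had, against 99.7%. The median step from 12 to 16 h kept 84.1% in OGA-null and 88.8% in WT larvae. In OGA-null larvae 55 of the 320 broad peaks (17.2%) had more signal at 16 h than at 12 h, against 20.6% of all peaks, and in WT larvae 113 (35.3%) had, against 32.4% of all peaks.

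The second question was whether the loss of label at these peaks, where no OGA was mapped nearby, differed between larvae without and with the enzyme. The median ratio of OGA-null to WT signal over the broad peaks was 0.666, 1.38, 1.56, 2.59, 2.42, 2.60 and 2.98 in the columns up to 24 h and 12.3 at 36 h, where 317 peaks had WT signal. At 0 h none of the 320 peaks was higher in OGA-null larvae, against 0.159% of all O-GlcNAc peaks. From 4 h on all 320 were, where 98.8%, 99.4%, 100%, 100%, 99.8%, 99.4% and 100% of all peaks were.

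On the log2 scale this median ratio grew by 0.0982 ± 0.0128 per hour of chase (SE of the fit; exact two-sided permutation tests over 8 chase times, Pearson's r = 0.953 with p = 7.44e-05 and Spearman's rho = 0.976 with p = 0.000397). Without the 0 and 36 h points, a choice made after seeing the data, the slope was 0.0549 per hour and still passed (r = 0.907, exact permutation p = 0.00833; rho = 0.943, exact permutation p = 0.0167). Averaged over the 8 times, the median log2 ratio was 1.22 (exact two-sided sign-flip permutation p = 0.0234, adjusted p = 0.0234 over 3 tests of level), higher in OGA-null larvae at 7 of 8 times. The growth was uneven over the chase. The median log2 ratio was 1.37, 1.27, 1.38 and 1.57 at 12, 16, 20 and 24 h, and 3.62 at 36 h. From 12 to 24 h the median share of signal kept was 20.4% in OGA-null and 18.3% in WT larvae. All peaks in a column carry 1 scaling, and scaling that drifted with the chase and a difference in loss cannot be told apart.

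A ratio of 2 or more, OGA-null over WT, was reached by 2 of the 320 broad peaks at 4 h (0.625%, where 1.38% of all O-GlcNAc peaks reached it), by 16 at 8 h (5.00%, against 11.8% of all peaks) and by 295 at 12 h (92.2%, against 90.1% of all peaks). It was reached by 264 at 16 h (82.5%, against 80.1%), 283 at 20 h (88.4%, against 80.5%), 287 at 24 h (89.7%, against 80.7%) and all 320 at 36 h (against 99.2% of all peaks). At 12 h the ratio of single broad peaks lay between 1.60 and 5.22, with 1.90 and 3.51 at the 5th and 95th percentiles.

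**Figure D3:**
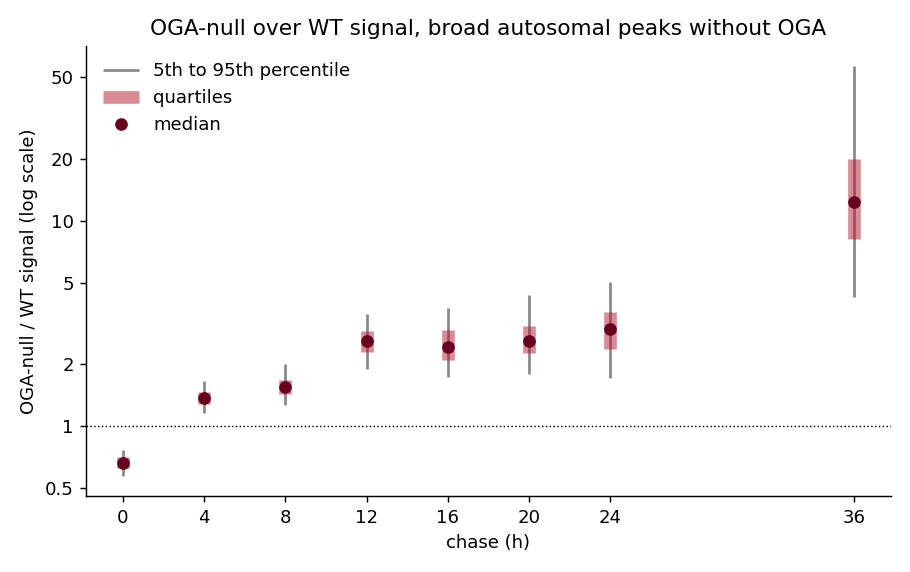
Ratio of OGA-null to WT signal (log scale) over the 320 broad autosomal O-GlcNAc peaks without OGA at each chase time (317 peaks at 36 h); points are medians, thick bars quartiles and thin bars the 5th to 95th percentiles. The median is 0.666 at 0 h, lies between 2.42 and 2.98 from 12 to 24 h, and is 12.3 at 36 h.

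The apparent half-life of single broad peaks, from a line through log2 signal per base at 0 to 24 h, where no value was 0, had a median of 9.07 h in OGA-null larvae (5th to 95th percentile 7.37 to 10.7 h) and of 5.27 h in WT larvae (4.60 to 5.86 h). The ratio of OGA-null to WT half-life ran from 1.28 to 2.47 with a median of 1.73. These half-lives likewise sum up an uneven decline. Broad peaks that kept label long in one genotype tended somewhat to do so in the other. Spearman's rho between both half-lives was 0.372 across the 320 peaks, and between both shares left at 8 h it was 0.189. Both are descriptions over peaks that share libraries. Peaks with more OGA-null signal at 0 h had longer OGA-null half-lives (rho = 0.394 across peaks), while in WT larvae the same relation had a rho of 0.0745.

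The order of the peaks by signal per base was much alike in both genotypes until late in the chase. Across the 320 broad peaks Spearman's rho between OGA-null and WT signal per base was 0.748, 0.769, 0.732, 0.559, 0.746, 0.566, 0.410 and -0.137 in the order of the chase. The WT 36 h column also lost the order of the WT 0 h column (rho = -0.125), where the OGA-null columns at 0 and 36 h still had a rho of 0.638. These are descriptions across peaks that share the columns' libraries.

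The third question was whether broad peaks differed from the narrow ones in level or in loss. Broad peaks had more signal on each base. Their median was 24.6 in OGA-null and 37.4 in WT larvae at 0 h, against 22.4 in OGA-null and 32.0 in WT larvae for narrow peaks. In OGA-null larvae the ratio of the broad to the narrow median was 1.10, 1.18, 1.19, 1.19, 1.24, 1.22, 1.23 and 1.22 from 0 to 36 h. In WT larvae it was 1.17, 1.21, 1.22, 1.23, 1.34, 1.24 and 1.20 from 0 to 24 h, and 0.855 at 36 h. All 8 OGA-null columns and 7 of the 8 WT columns thus had the broad peaks above.

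Over the 8 times the mean log2 difference, broad minus narrow, was 0.26 in OGA-null larvae (exact two-sided sign-flip permutation p = 0.00781, adjusted p = 0.0234, 8 of 8 columns positive) and 0.23 in WT larvae (exact permutation p = 0.0234, adjusted p = 0.0234, 7 of 8 columns positive). The OGA-null p is the smallest that 8 times can give. The same peaks make up every column, so the test speaks of these columns and not of other peaks. Width splits the classes and also divides the signal, so the tested value is tied to the split. The labels do not say how the borders of a peak were set, and a width set on the same signal is not independent of it. The test therefore cannot decide whether the classes differ in label apart from how peaks were drawn.

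The slope of the broad-minus-narrow difference over the chase was 0.00349 ± 0.00135 log2 per hour in OGA-null larvae (r = 0.727, exact permutation p = 0.0408, adjusted p = 0.163 over 4 trends; rho = 0.762, exact permutation p = 0.0368, adjusted p = 0.147), which did not pass after adjustment. Without the 36 h column the slope was 0.00584 per hour and passed (adjusted p = 0.0286, exact permutation). In WT larvae the slope was -0.0102 ± 0.00533 per hour and did not pass (r = -0.617, exact permutation p = 0.117, adjusted p = 0.211; rho = -0.0476, exact permutation p = 0.935, adjusted p = 0.935). That negative slope rests on the WT 36 h column: without it the slope was 0.00272 per hour (adjusted p = 0.439, exact permutation).

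As shares of their own 0 h signal, OGA-null broad peaks kept a median of 79.04% after 8 h, where narrow peaks kept 73.8%, and 55.4% after 16 h, where narrow peaks kept 49.5%. WT broad peaks kept 33.5% after 8 h and narrow ones 32.6%, and after 16 h broad ones kept 15.2% and narrow ones 13.4%. After 36 h the WT shares were 0.364% for broad and 0.499% for narrow peaks, with 3 broad and 26 narrow peaks at 0.

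Broad peaks without OGA were also set against broad peaks near OGA. The 89 autosomal peaks of 75 bp or more that had an OGA interval within 1000 bp had the same median width of 115 bp. Their median signal per base at 0 h was 24.2 in OGA-null and 37.1 in WT larvae, against 24.6 in OGA-null and 37.4 in WT larvae for the broad peaks without OGA. The log2 difference, broad without OGA minus broad near OGA, lay between 0.02 and 0.14 in OGA-null larvae and between -0.10 and 0.23 in WT larvae. Its trend over the chase was 0.00223 ± 0.00138 per hour in OGA-null larvae (r = 0.550, exact permutation p = 0.158, adjusted p = 0.211; rho = 0.476, exact permutation p = 0.243, adjusted p = 0.486). In WT larvae it was -0.00245 ± 0.00354 per hour (r = -0.272, exact permutation p = 0.516, adjusted p = 0.516; rho = -0.143, exact permutation p = 0.752, adjusted p = 0.935). Neither passed, which does not show that both kinds lose label alike.

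Some counts of peaks past a fixed loss differed more, with no test made. By 16 h in OGA-null larvae, 91 broad peaks without OGA (28.4%) had lost 2-fold or more, against 40 of the 89 near OGA (44.9%). By 4 h in WT larvae 182 without OGA (56.9%) had, against 64 near OGA (71.9%). From 12 to 16 h in WT larvae 113 without OGA (35.3%) gained signal, against 15 near OGA (16.9%). Of all O-GlcNAc peaks, 46.6%, 62.2% and 32.4% did so in the same order. The 2-fold limit lay close to the class medians. At 16 h in OGA-null larvae the median share left was 55.4% without and 51.9% near OGA. At 4 h in WT larvae it was 49.4% without and 47.8% near OGA. In OGA-null larvae 60.6% without and 62.9% near OGA rose from 0 to 4 h, and 17.2% and 12.4% from 12 to 16 h.

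The median ratio of OGA-null to WT signal was 2.59 at 12 h and 2.98 at 24 h for broad peaks without OGA, against 2.62 at 12 h and 2.81 at 24 h for those near OGA. Among the broad peaks without OGA, the 99 with OGA 1 to 5 kb away had a median ratio of 2.60 at 12 h, and the 31 with none within 50 kb one of 2.74. In between, the 124 with OGA at 5 to 20 kb and the 66 at 20 to 50 kb had 2.55 and 2.62. The label left after 8 h was 79.2%, 78.5%, 79.7% and 78.97% in OGA-null larvae in the order of growing distance, and 33.7%, 33.4%, 33.2% and 34.1% in WT larvae. These values follow no order with distance. The WT median signal per base at 36 h, in the lowest column, was 0.168, 0.153, 0.134 and 0.120 in that order. In OGA-null larvae the 36 h median was 1.75 in the nearest group and 1.85 in the farthest. The 24 h ratio was 2.93, 2.91, 3.04 and 3.15. No test of any of these values was made.

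**Figure D4:**
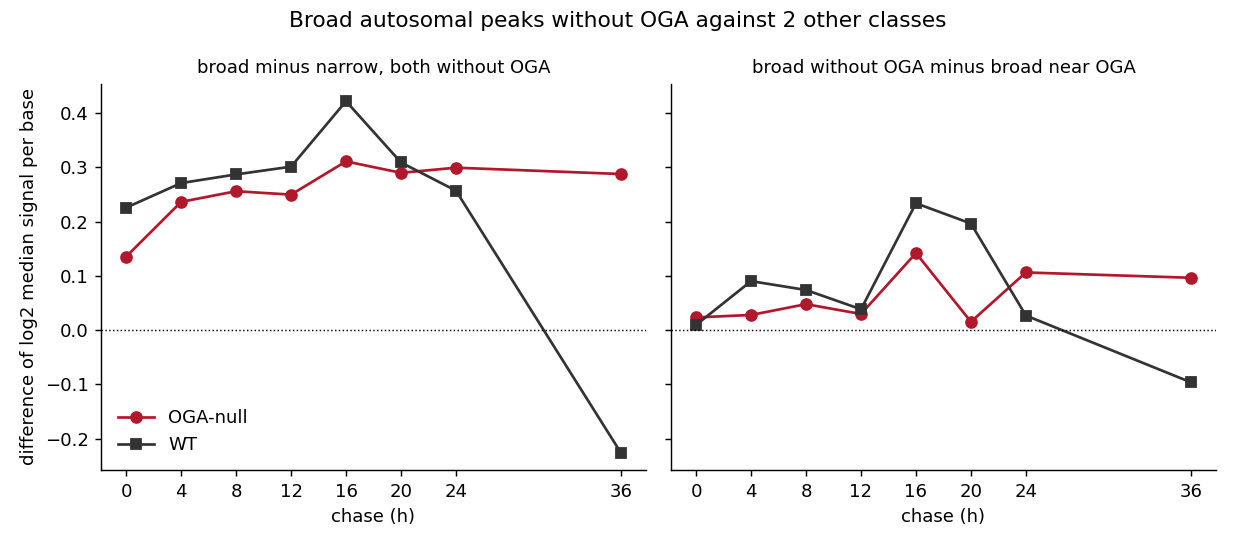
Difference of the log2 median signal per base between broad peaks without OGA and narrow peaks without OGA (left) or broad peaks near OGA (right) at each chase time, for OGA-null and WT larvae. Left, the values lie between 0.14 and 0.42 except for WT at 36 h, at -0.23; right, they lie between -0.10 and 0.23.

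Within the broad peaks, signal per base at 0 h was higher in wider peaks. Width also divides the signal, and a width set on the same signal would not be independent of it. The values therefore cannot tell label apart from how peaks were drawn. In the lowest of 4 width classes, 77 peaks of 75 to 90 bp, the median 0 h signal per base was 23.7 in OGA-null and 35.2 in WT larvae. In the highest, 82 peaks of 154 to 450 bp, it was 26.3 in OGA-null and 40.6 in WT larvae. The classes in between had 24.6 and 24.5 in OGA-null and 37.2 and 36.6 in WT larvae. Across the 320 peaks Spearman's rho of width with 0 h signal per base was 0.389 in OGA-null and 0.369 in WT larvae, and at 36 h it was 0.223 in OGA-null and 0.0659 in WT larvae. After 8 h the widest class kept 80.8% in OGA-null and 34.2% in WT larvae, and the lowest class 76.8% in OGA-null and 32.8% in WT larvae.

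At 0 h, medians by arm and by crowding lay close together. By arm, the median 0 h signal per base of the broad peaks lay between 24.3 on 3L and 24.8 on 2L in OGA-null larvae and between 36.4 on 3L and 37.6 on 3R in WT larvae. The 33 broad peaks with another O-GlcNAc peak within 100 bp had medians of 24.2 in OGA-null and 37.4 in WT larvae, and the 135 with none within 10 kb had 24.8 in OGA-null and 37.6 in WT larvae. At 16 h the crowded ones were somewhat lower, with 11.8 against 14.1 in OGA-null and 5.14 against 5.92 in WT larvae. By arm, the 16 h medians in WT larvae lay between 4.90 on 3L and 5.98 on 2L. In OGA-null larvae they lay between 13.2 on 3L and 14.1 on 2L. No test of these groups was made.

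Peaks just inside and just outside the limits of the selection had these values. The 30 peaks of 75 to 79 bp, just inside, had a median 0 h signal per base of 22.9 in OGA-null and 32.2 in WT larvae, and the 39 of 70 to 74 bp, just outside, 23.2 in OGA-null and 34.4 in WT larvae. The 5 broad peaks just beyond the gap limit, at 1006 to 1072 bp from OGA, had 23.4 in OGA-null and 34.6 in WT larvae. The 5 just within it, at 908 to 991 bp, had 25.5 in OGA-null and 39.3 in WT larvae.

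The 8 single peaks that were highest in WT larvae at 0 h were 192 to 327 bp wide, against a median of 115 bp, and lay on 2L, 2R and 3R. The tie between width and signal per base given above holds for these peaks too. The highest, on 3R at 7394839 to 7395055, was 217 bp wide with OGA 22482 bp away. Its OGA-null values, in the order of the chase, were 36.0, 37.6, 30.3, 27.8, 20.2, 11.9, 6.19 and 2.95. Its WT values were 57.7, 27.8, 21.9, 10.0, 8.96, 5.56, 2.03 and 0.134. The signal fell at every step in WT larvae and rose once, from 0 to 4 h, in OGA-null larvae.

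The next highest lay on 2L at 12461212 to 12461403, 192 bp wide, with OGA 24621 bp away. Its signal per base was 34.9, 36.5, 26.7, 27.2, 26.7, 13.2, 7.11 and 3.69 in OGA-null larvae. The WT signal was 54.99, 28.4, 22.9, 11.8, 14.1, 6.63, 2.00 and 0.302. This peak stayed level from 8 to 16 h in OGA-null larvae, at 76.6% of its 0 h signal after both times, and its WT signal was higher at 16 h than at 12 h.

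The third, on 3R at 19685187 to 19685462 (276 bp, OGA 16017 bp away), also had more WT signal at 16 h than at 12 h. Its signal per base was 33.3, 36.9, 31.7, 27.1, 24.3, 16.1, 7.01 and 3.62 in OGA-null larvae. The WT values were 54.2, 29.4, 20.7, 12.4, 14.3, 7.67, 2.41 and 0.134. After 20 h it kept 48.3% in OGA-null and 14.2% in WT larvae, where the median broad peak kept 32.9% in OGA-null and 8.39% in WT larvae.

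Of the other 5 of the highest 8, the peak on 2L at 9176140 to 9176466 (327 bp) had OGA no nearer than 62671 bp and started at 31.4 in OGA-null and 53.9 in WT larvae. The peak on 2L at 13549160 to 13549351 (192 bp) started at 33.0 in OGA-null and 53.8 in WT larvae, and 813 bp from it lay a further broad peak of 108 bp. Those on 3R at 24365926 to 24366161 (236 bp), on 2L at 1884570 to 1884808 (239 bp) as well as on 2R from 4536956 to 4537215 (260 bp) started between 30.5 and 31.6 in OGA-null and between 49.1 and 51.2 in WT larvae. After 8 h these 5 peaks kept between 79.5% and 89.8% in OGA-null larvae and between 30.8% and 37.9% in WT larvae.

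**Figure D5:**
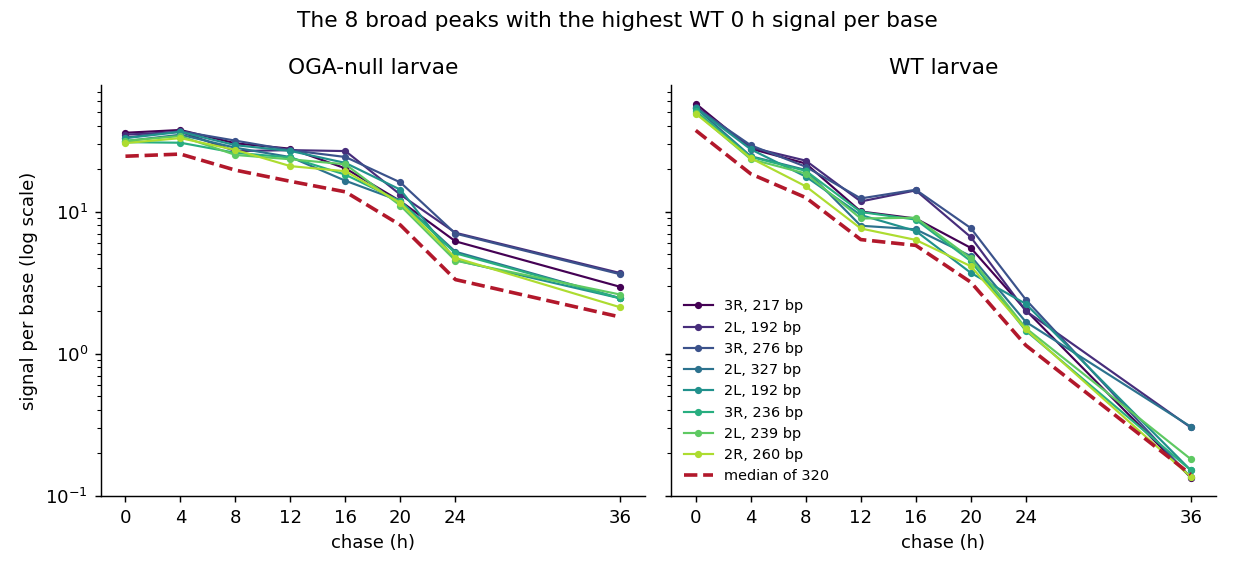
Signal per base (log scale) of the 8 broad peaks highest in WT larvae at 0 h, at each chase time in OGA-null (left) and WT larvae (right), each named by its chromosome arm and width; the dashed line is the median of the 320 broad peaks. In OGA-null larvae all 8 stay above the median at every time; at 36 h in WT larvae they lie between 0.134 and 0.306, around the median of 0.141.

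Of the 8 widest broad peaks, 1 was also among the 8 highest in WT larvae at 0 h. The widest, 450 bp on 3L at 6957450 to 6957899 with OGA 3252 bp away, had 28.1, 32.1, 22.9, 21.4, 19.1, 9.89, 4.02 and 2.02 in OGA-null larvae over the chase. The WT signal was 45.4, 21.2, 15.2, 7.41, 5.91, 3.98, 1.37 and 0.145. It was above the class median at every time in both genotypes. Next came 408 bp on 3R at 16608472 to 16608879 with OGA 79832 bp away, which at 0 h had 24.9 in OGA-null and 34.9 in WT larvae, near or below the median broad peak. The peak of 398 bp on 2L at 13060057 to 13060454 had 26.8 in OGA-null and 43.5 in WT larvae at 0 h, and a narrow O-GlcNAc peak of 20 bp lay 36 bp from it.

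The peak of 367 bp on 3L at 9367395 to 9367761 had OGA 2041 bp away and lay 1925 bp from the widest O-GlcNAc peak of the list, which is 557 bp wide. It kept 39.8% of its 0 h signal after 16 h in OGA-null larvae and 9.92% in WT larvae, less than the median broad peak in both. The others of the 8 widest, on 3R at 8545397 to 8545750 (354 bp), on 2L at 9176140 to 9176466 (327 bp, described above), on 2R at 19554409 to 19554727 (319 bp) as well as on 3R from 17123583 to 17123885 (303 bp, part of the stretch with 5 broad peaks), started between 23.8 and 31.4 in OGA-null and between 35.1 and 53.9 in WT larvae.

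The ratio between genotypes at 12 h was highest on 3L at 4190741 to 4190826 (86 bp), with 13.0 in OGA-null and 2.49 in WT larvae, a ratio of 5.22. The next were on 3R at 5384211 to 5384306 (96 bp, ratio 4.56), on 2R at 13300752 to 13300885 (134 bp, 4.31) and on 2L at 224442 to 224518 (77 bp, 4.04). The lowest ratio, 1.60, was on 2L at 8686553 to 8686637 (85 bp), with 10.4 in OGA-null and 6.50 in WT larvae. Above it came peaks on 2L at 21679813 to 21679896 (84 bp, 1.65), on 3L at 160782 to 160860 (79 bp, 1.69) as well as on 3R from 7035968 to 7036169 (202 bp, 1.75). At 8 h these lowest 4 had ratios of 1.54, 1.64, 1.64 and 1.90, near or above the class median of 1.56.

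The share of label left after 8 h in WT larvae ranged from 20.1% to 45.9% over the broad peaks. The highest shares belonged to 2 peaks of 2L, 8701194 to 8701293 (100 bp, 45.9%) and 17450284 to 17450370 (87 bp, 45.6%), and 2 of 3R, 5531050 to 5531178 (129 bp, 45.5%) and 21932594 to 21932689 (96 bp, 44.9%). In OGA-null larvae these 4 kept between 74.6% and 95.98% after 8 h. It was lowest on 3R at 3938615 to 3938689 (75 bp, 20.1%), on 2R at 6159145 to 6159221 (77 bp, 21.7%), on 3L at 4976124 to 4976203 (80 bp, 22.6%) as well as on 3R from 23775665 to 23775739 (75 bp, 22.8%). In OGA-null larvae those 4 kept between 63.2% and 87.7%, so the ranges of the extremes overlapped there. The peak at 3938615 had OGA 173249 bp away, and the one at 23775665 belongs to the second stretch on 3R.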

How the data were processed

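The authors deposited 1 table of 1883 O-GlcNAc peaks holding 16 signal columns (genotype by chase time) and 1 list of 3534 OGA intervals. Per the file headers each column combines replicates 1 and 2. The submitters' processing notes name dm3, sacCer3, bedtools 2.17.0 and SAMtools, with no role for each. Aligner, caller and scaling: not given in the sources used here. Signal was divided by peak width; medians over peaks were used without a pseudocount.

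Broad peaks were 75 bp or wider and over 1000 bp from OGA. Tests were exact two-sided permutations: all 40320 pairings of 8 times for a trend, all 256 sign flips for a level, with Benjamini-Hochberg adjustment over 4 trends and 3 levels, at 0.05. Named peaks were the 8 highest, the 8 widest, and the 4 highest and 4 lowest by 12 h ratio and by WT share left at 8 h, with the 3 windows of 100 kb richest in broad peaks. Members and rules were chosen with earlier results of these data known. Scripts (Python 3.11.15, numpy 2.4.6, scipy 1.17.1) were tested on simulated declines. Alternatives were other width and gap limits, large arms only, the upper part by WT 0 h signal, summed signal, a pseudocount and left-out times. Model fits per library were not possible, because the columns combine replicates. Tests then measure the scatter of the columns over time.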

Additional observations from a re-analysis of the deposited data

Results flagged for a closer look

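The trend of the broad-minus-narrow difference over the chase differed between genotypes, in a test chosen after seeing the data. It was 0.0137 ± 0.00431 log2 per hour higher in OGA-null than in WT larvae (r = 0.793, exact permutation p = 0.0133; rho = 0.690, exact permutation p = 0.0694, over 8 chase times). It rests on the 36 h columns, where the difference was 0.29 in OGA-null and -0.23 in WT larvae: without 36 h it was 0.00312 per hour (exact permutation p = 0.213). Without 24 h it was 0.0150 per hour (exact permutation p = 0.0546). At 36 h the WT signal per base of the broad peaks had a median of 0.141 and 3 peaks at 0, and the part of this low signal in the trend was not tested.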

How the results depend on the processing

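No paired analysis was possible because the deposited columns combine both replicates; leaving out replicates was not run for the same reason. The genotype trend (0.0549 to 0.105 log2 per hour) and the genotype difference of the broad peaks (0.87 to 1.48 log2) kept their direction and passed under all 17 alternatives tried for each, as did both broad-minus-narrow levels under 16 (0.24 to 0.33 in OGA-null, 0.20 to 0.31 in WT larvae). Large arms only, among these alternatives, kept all 320 broad peaks and so could only repeat the main genotype values. The levels kept the tie between width and signal per base under every alternative. The WT broad-minus-narrow trend turned to 0.00272 without 36 h and to 0.000835 without 0 and 36 h. The OGA-null one passed without 36 h, at 0.00584. Against broad peaks near OGA, the WT trend turned to 0.00407 with a width minimum of 100 bp, to 0.00379 without 36 h, to 0.00176 without 0 and 36 h and to 0.00188 with summed signal. The OGA-null trend passed with summed signal, at 0.00216 (adjusted p = 0.0379, exact permutation; 0.00120 to 0.00291 over all 16). The WT half-life was 5.27 h without 36 h and 5.36 h without 0 and 36 h, and the OGA-null one 7.45 h without both. Peaks with a 12 h ratio of 2 or more numbered 190 of 203 at 100 bp and 149 of 160 in the upper part by WT 0 h signal, since fewer peaks were counted. The cause of the other changes was not tested. Leaving out single times from 4 to 24 h, or both ends, was chosen after seeing the data.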
